A study of Mus musculus with 6 samples.

Results

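Retinal ganglion cells are the output neurons of the eye, and 10 genes widely used to mark them are described here: Rbpms, Pou4f1, Pou4f2, Pou4f3, Slc17a6, Thy1, Nefl, Nefm, Nefh and Sncg. They were taken by name from the 21887 protein-coding genes on the nuclear chromosomes of a RefSeq gene table, and all 10 were found. A peak was counted for a gene when its summit, the base with the most stacked fragments, lay inside the gene or within 10 kb of it. The data are BMAL1 chromatin immunoprecipitation sequencing (ChIP-seq) peak lists from mouse retina, 1 list per library. There were 3 libraries of wild-type mice (Control 1 to 3). Another 3 were of mice with a conditional knockout of the clock gene Bmal1 (Bmal1 CKO 1 to 3). All animals were of the C57BL/6 strain and had no external treatment, and pups were weaned at postnatal day 20. The driver of the deletion, the cells in which it acted, the age at collection and the time of day were not stated in the labels. The windows of the 10 genes held 52 of the 179475 peaks of Control 1 and 39 of the 138254 peaks of Bmal1 CKO 2. The lists of Control 2 (410 peaks), Control 3 (372), Bmal1 CKO 1 (1444) and Bmal1 CKO 3 (519) held 0.

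BMAL1 pairs with CLOCK or NPAS2 and binds E-box sequences such as CACGTG, from which it drives genes of the circadian clock. Ganglion cells collect signals from bipolar and amacrine cells and send them to the brain through the optic nerve, and a subset that makes melanopsin sets the clock of the brain to daylight. They are a small minority of retinal cells. The chromatin came from retina, so a peak at a ganglion cell gene cannot be assigned to ganglion cells, and a peak list does not measure whether these genes were expressed.

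Transcription starts of 4 of the 10 genes, Slc17a6, Pou4f1, Pou4f2 and Sncg, were matched in a RefSeq promoter table of GRCm38.p6, an assembly with the same chromosome coordinates as mm10. The 250 bases before the start are shown for 3 of them, because they differ in how the peaks meet the start: peak of Bmal1 CKO 2 over the start (Slc17a6, chr7:51621580-51621829, plus strand), peak of Control 1 just before it (Pou4f2, chr8:78436648-78436897, minus strand) and no peak over these bases (Pou4f1, chr14:104468000-104468249, minus strand). Each is written 5′ to 3′ on the strand of the gene, and capitals mark bases under a peak of either list.
Slc17a6: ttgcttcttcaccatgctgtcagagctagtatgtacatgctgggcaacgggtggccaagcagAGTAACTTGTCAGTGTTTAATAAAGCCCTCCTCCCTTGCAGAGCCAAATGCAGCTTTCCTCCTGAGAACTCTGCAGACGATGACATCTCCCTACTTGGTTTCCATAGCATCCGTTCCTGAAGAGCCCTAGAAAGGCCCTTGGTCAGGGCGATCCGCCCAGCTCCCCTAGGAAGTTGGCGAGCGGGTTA
Pou4f2: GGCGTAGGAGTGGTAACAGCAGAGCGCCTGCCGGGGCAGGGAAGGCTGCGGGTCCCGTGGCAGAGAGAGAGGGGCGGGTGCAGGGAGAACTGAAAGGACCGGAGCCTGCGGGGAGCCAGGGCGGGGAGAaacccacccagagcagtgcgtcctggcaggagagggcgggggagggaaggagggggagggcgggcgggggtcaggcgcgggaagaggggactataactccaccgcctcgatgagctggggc
Pou4f1: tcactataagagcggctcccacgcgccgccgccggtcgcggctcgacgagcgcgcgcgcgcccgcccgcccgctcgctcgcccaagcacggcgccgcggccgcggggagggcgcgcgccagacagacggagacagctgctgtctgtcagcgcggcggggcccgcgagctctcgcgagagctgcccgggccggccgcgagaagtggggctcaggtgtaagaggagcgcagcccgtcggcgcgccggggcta
In Slc17a6, 188 of the 250 bases lay under a Bmal1 CKO 2 peak and 0 under a Control 1 peak. In Pou4f2, 129 lay under a Control 1 peak and 0 under a Bmal1 CKO 2 peak. GC made up 53.2% of the Slc17a6 bases, 70.8% of those of Pou4f2 and 78.0% of those of Pou4f1, against a median of 52.4% over all promoters of the table. The motif CACGTG, which reads the same on both strands, was in 0 of the 5 windows of 300 bases around starts of these 4 genes, and in 2349 of all 32851 such windows (7.15%). Its absence says only that these letters are not in these windows.

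The 6 libraries differed far more in list length than the genotypes did, and all results on the 10 genes rest on 1 library per genotype. Which list is which library was taken from the series record, since the numbers in the list names do not match the sample titles. Solving each peak's deposited fold and p-value for the fragments behind it gave a genome-wide background of 5.83 fragments per base in Bmal1 CKO 2, 3.46 for Control 1, 2.78 for Bmal1 CKO 1 and 0.560 to 0.852 in the other 3 libraries, a measure of relative depth. At Arntl, the gene table's name for Bmal1, Control 1 listed 19 peaks, Bmal1 CKO 2 listed 15 and the other 4 lists 0, which cannot check the deletion.

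Nearly every ganglion cell gene had a peak in the 2 long lists, as had most genes. In Control 1 all 10 genes had at least 1 peak, where 92.6% of all protein-coding genes had one. Bmal1 CKO 2 listed peaks at 9 of 10, all but the neurofilament gene Nefh, where 87.8% of all genes had one. The share of all genes with a peak in both lists was 85.8%, and 9 of the 10 members had one in both. Within 1 kb of either annotated gene end, 8 of 10 members had a peak in Control 1 (69.5% of all genes) and 5 of 10 in Bmal1 CKO 2 (58.9%). The same 5, Rbpms, Pou4f3, Slc17a6, Nefl and Nefm, had an end peak in both lists (54.7% of all genes), while Pou4f2, Thy1 and Nefh had one in Control 1 alone and Pou4f1 and Sncg in neither. With 10 genes, these counts are near the shares of all genes. The 4 short lists had 0 of 10, where the share of all genes with a peak was 0.781% for Control 2, 0.758% for Control 3, 1.99% for Bmal1 CKO 1 and 1.08% for Bmal1 CKO 3. At gene ends those shares were 0.0594%, 0.0594%, 0.315% and 0.105%.

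**Figure D1:**
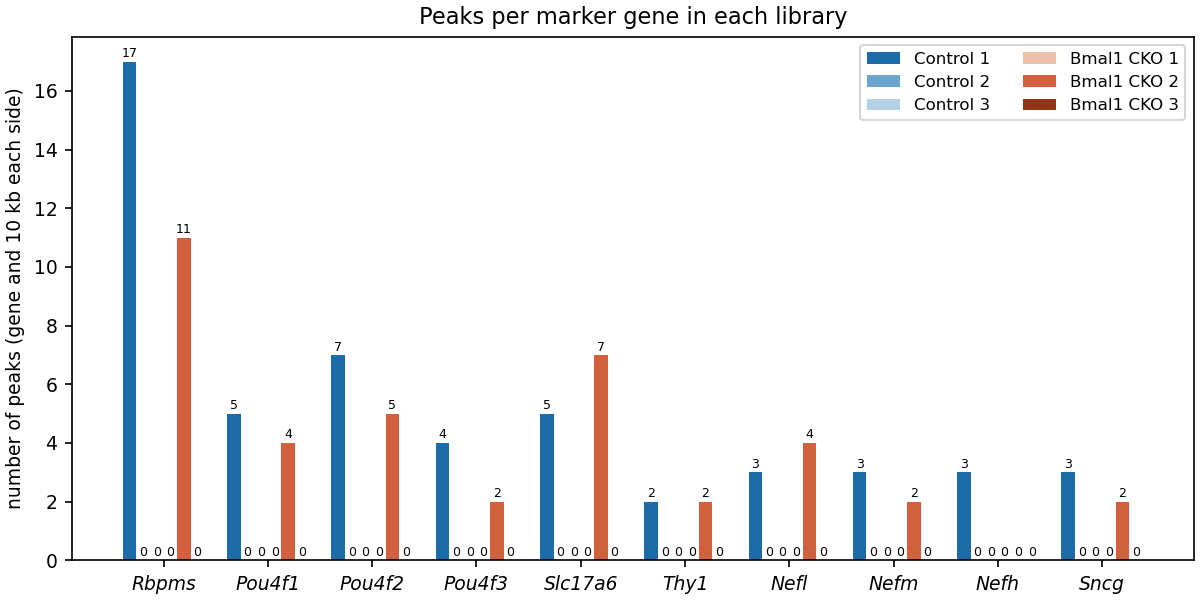
Number of peaks (y axis) with a summit in each gene or within 10 kb, 1 bar per library, with the number printed above it. Control 1 and Bmal1 CKO 2 have all the peaks, with the most at Rbpms, 17 and 11. The fewest are 2 at Thy1 in Control 1 and 0 at Nefh in Bmal1 CKO 2, and the other 4 libraries are at 0 for every gene.

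These counts differed between genotypes by less than the spread within them. The number of members with a peak was 10, 0 and 0 in the controls and 0, 9 and 0 in the CKO libraries, a mean of 3.33 ± 5.77 against 3 ± 5.20 (SD, n = 3 each; exact two-sided permutation test, p = 1). Members with an end peak averaged 2.67 ± 4.62 and 1.67 ± 2.89 (SD, n = 3 each; exact permutation p = 1). The log10 of the number of member peaks plus 1 averaged 0.575 ± 0.996 in the control group and 0.534 ± 0.925 in the knockout group (SD, n = 3 each, p = 1 by the same exact permutation test). The smallest p that 3 libraries against 3 allow is 0.10. Here only 1 list per genotype held member peaks, which fixed the outcome of all 3 tests in advance. They therefore cannot tell whether the genotypes differ. The differences, CKO minus control, of −0.333 genes, −1 gene and −0.0407 became 3, 1.67 and 0.534 without Control 1. They became 1.17, −0.167 and 0.226 without Bmal1 CKO 1, and the same without Bmal1 CKO 3. Without Bmal1 CKO 2 they were −3.33, −2.67 and −0.575, and without Control 2 or Control 3 they were −2, −2.33 and −0.328. The labels do not say whether libraries came from single animals or pools.

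The absence from the short lists was set beside their depth. Scaled to the background of Control 2 and of Bmal1 CKO 3, 0 of the 52 member peaks of Control 1 reached the lowest −log10 p-value that the list held (6.76 and 5.05). Scaled to Control 3, 1 of 52 did, the strongest Pou4f1 peak, at 6.41 against a lowest listed value of 6.20. Scaled to Bmal1 CKO 1, 28 of the 52 peaks of Control 1 reached the lowest value of that list, 5.45. Of the 39 peaks of Bmal1 CKO 2, 1 did, a Nefl peak at 5.71. The Bmal1 CKO 1 list held 0 peaks at these genes. The scaling takes the profile of one library as that of another and the lowest listed value as the limit, and the part of depth in the absence was not tested. The nearest summit of the Bmal1 CKO 1 list lay 53.8 kb from Pou4f2, and that of Control 2 lay at the same distance from the same gene. In Bmal1 CKO 3 the nearest was 71.2 kb from Nefh, and the median distance over the 10 genes was 3608 kb to 8400 kb in the 4 lists.

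Among the transcription factors, the 3 Pou4f (Brn3) genes, which encode POU-domain factors of ganglion cell differentiation and survival, had the densest peaks of the 10 genes in Control 1. Pou4f2, the earliest of the 3 in ganglion cell development (chromosome 8, 78433009 to 78436647), had 7 peaks in Control 1 and 5 in Bmal1 CKO 2, or 2.96 and 2.12 peaks per 10 kb of window. Those densities stood at percentiles 99.5 and 98.4 of all protein-coding genes in the 2 lists. Such percentiles take no account of gene length, and a few peaks give a high density in a short window. The median member is 5.35 kb long and the median gene 17.2 kb. Ends made up 9.03% of the member windows and 5.72% of those of all genes. The same limit holds for the density percentiles of the other short members below. Merged, its peaks formed 6 regions, of which 3 were in both lists, 2 in Control 1 alone and 1 in Bmal1 CKO 2 alone. The summits of those shared places lay close together: 78426686 and 78426676, 78427624 and 78427682, and 78438192 and 78438181 outside the gene, and 78435455 and 78435496 inside it, the first and second pair belonging to 1 merged region. The highest Control 1 fold was 5.16 at 78427624, which is 5385 bp beyond the lower end, where Bmal1 CKO 2 had 2.52. The highest of Bmal1 CKO 2 was 3.12 at 78435496, inside the gene, with 34 fragments stacked over 10.2. The end peak of Control 1, with a fold of 2.83, lay 279 bp outside the upper end, which is the start, over the bases shown in capitals above.

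Pou4f1, which encodes BRN3A (chromosome 14, 104461675 to 104468118), had the strongest peak of all 10 genes. Its summit in Control 1 lay at 104460577, 1098 bp outside the lower end, where 36 fragments were stacked over a background of 4.66 (fold 6.54). This fold stood at percentile 98.7 of the Control 1 list. Bmal1 CKO 2 listed an overlapping peak with its summit 57 bp away, at 104460520, a fold of 3.61 from 29 fragments over 7.30, at percentile 84.9 of its list. The start of Pou4f1 is at the other end of the gene, so this peak lies beyond its 3′ end. A peak 5215 bp outside the upper end was the second in Control 1, with a fold of 4.92, and the lowest of the gene in Bmal1 CKO 2, with 2.65, the summits lying 19 bp apart. Bmal1 CKO 2 alone had a peak 3347 bp outside the lower end, with a fold of 2.81. Inside the gene Control 1 listed folds of 2.94, 3.64 and 3.56, and Bmal1 CKO 2 listed 2.96 in 1 peak that overlapped the first and second of them. In all, 5 peaks of Control 1 and 4 of Bmal1 CKO 2 made 5 regions, 3 of them in both lists, with 1.89 and 1.51 peaks per 10 kb (percentiles 92.7 and 93.4).

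Pou4f3, which encodes BRN3C and is also needed by hair cells of the inner ear, is the shortest member (chromosome 18, 42394597 to 42396093). It had 4 peaks in Control 1 and 2 in Bmal1 CKO 2, and both of the latter overlapped Control 1 peaks. In Control 1, end peaks lay 19 bp inside the lower end, with a fold of 3.04, and 663 bp inside the upper end, with 3.66. Bmal1 CKO 2 had 1 end peak, with a fold of 2.55 and a summit 265 bp from that of the latter. The other shared peak lay 8347 bp outside the lower end, with folds of 3.93 and 2.59. The densities were 1.86 and 0.930 per 10 kb, at percentiles 92.1 and 71.5.

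**Figure D2:**
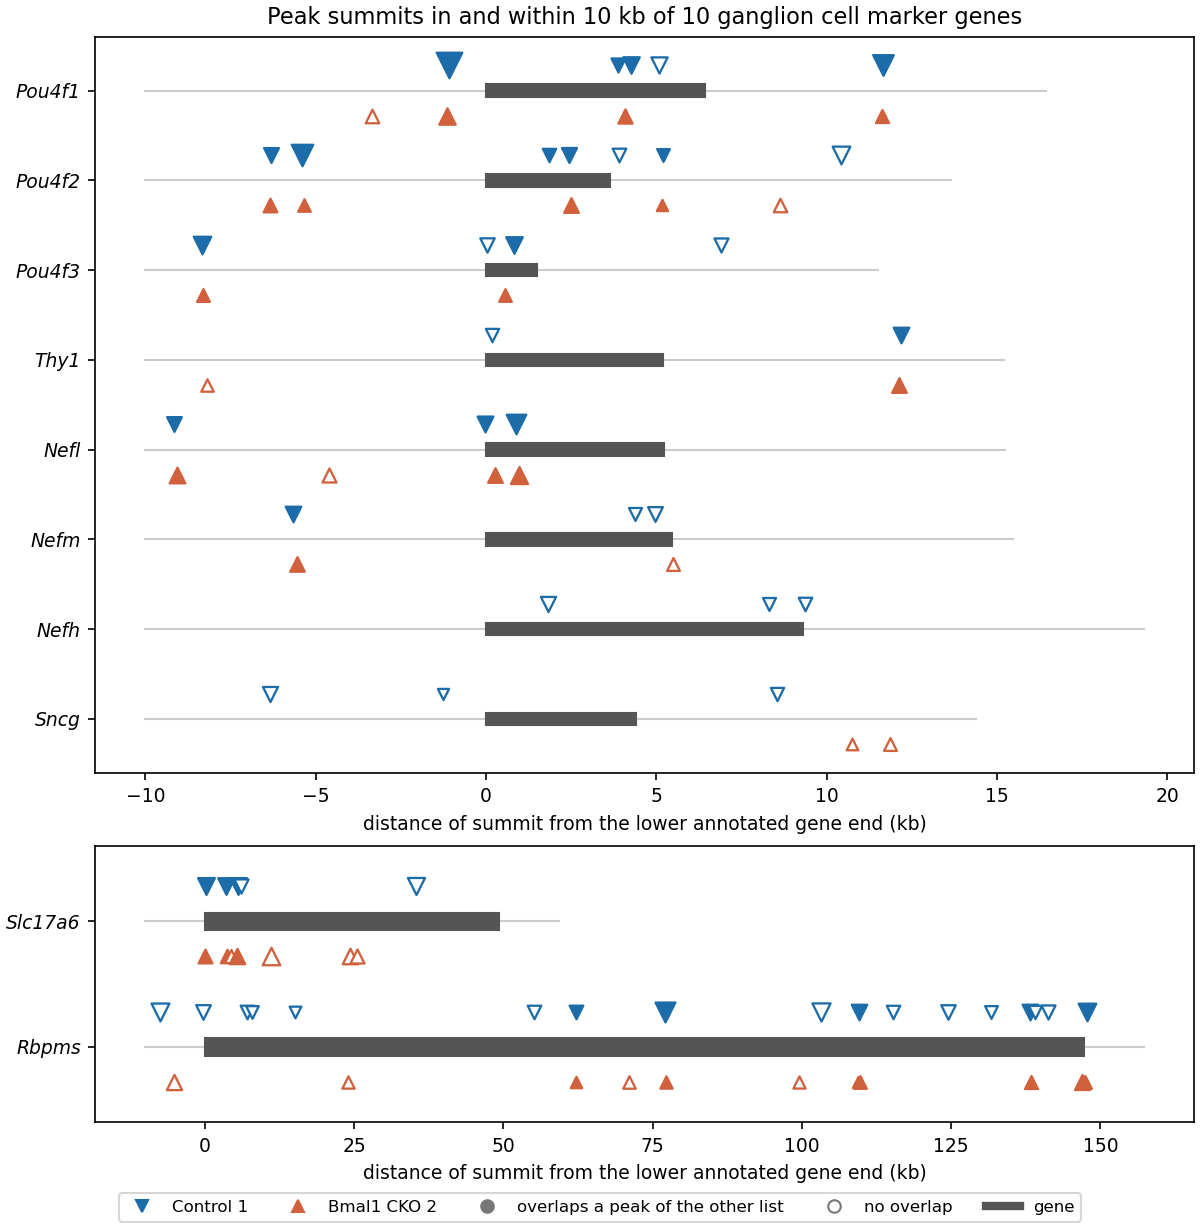
Position of every peak summit in and within 10 kb of the 10 genes, in kb from the lower annotated gene end (x axis), with Control 1 above each gene and Bmal1 CKO 2 below it. Marker size grows with the fold enrichment, filled markers overlap a peak of the other list by at least 1 bp, and the lower panel has its own scale for the 2 longest genes. Filled pairs stand at matching positions at Pou4f1, Pou4f2 and Nefl, and Nefh and Sncg have open markers only.

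Rbpms, whose RNA-binding protein marks nearly all ganglion cells, is by far the longest member (chromosome 8, 33782643 to 33929922) and held 17 peaks in Control 1 and 11 in Bmal1 CKO 2. Per length this was 1.02 and 0.658 peaks per 10 kb, at percentiles 53.7 and 50.6 of all genes, so the high count went with the length of the gene. Inside the gene and away from its ends lay 14 peaks of Control 1 and 8 of Bmal1 CKO 2. Merging gave 21 regions, 5 of them in both lists, 12 in Control 1 alone and 4 in Bmal1 CKO 2 alone. At the upper end Control 1 listed 1 wide peak of 1058 bp with a fold of 3.99 and its summit 472 bp outside the gene. There Bmal1 CKO 2 listed 2 narrower peaks, with a fold of 3.22 at 373 bp inside the end and 2.59 at 70 bp outside it. At the lower end Control 1 alone had a peak, with a fold of 3.12 at 333 bp outside the gene. The highest fold of Control 1 was 4.67, at 33859667 inside the gene, where Bmal1 CKO 2 had 2.46 with its summit 174 bp away. The highest of Bmal1 CKO 2 was 3.28, 5225 bp outside the lower end, and overlapped no Control 1 peak.

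Slc17a6 encodes VGLUT2, the transporter that loads glutamate into the synaptic vesicles of ganglion cells (chromosome 7, 51621830 to 51671126). It was 1 of 2 members with more peaks in Bmal1 CKO 2 than in Control 1, with 7 against 5. At its start both lists had an end peak, with summits 155 bp (Control 1, fold 3.75) and 81 bp (Bmal1 CKO 2, fold 2.87) inside the gene. That place also lies in the long noncoding RNA gene Gm33136, so the peak cannot be assigned to Slc17a6 alone. Peaks near 51625430 (folds 3.67 and 2.76) and near 51627359 (3.73 and 3.30) were shared as well. The highest fold of Control 1, 3.81 at 51657184, and the highest of Bmal1 CKO 2, 3.95 at 51632931, lay at different places and neither overlapped a peak of the other list. The 3.95 was the highest fold of any member in Bmal1 CKO 2, from 26 stacked fragments over a background at the genome-wide level of 5.83. Of 9 merged regions, 3 were in both lists, 2 in Control 1 alone and 4 in Bmal1 CKO 2 alone.

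The 3 neurofilament genes, whose light, medium and heavy chains form the intermediate filaments of large axons, ran from the most to the least shared. Nefl (light chain; chromosome 14, 68083863 to 68089095) had 3 peaks in Control 1, all of which overlapped Bmal1 CKO 2, and 4 in Bmal1 CKO 2, of which 3 overlapped Control 1. Near its lower end Control 1 had summits 29 bp outside the gene and 882 bp inside it, with folds of 3.46 and 4.57. Bmal1 CKO 2 had them 274 bp and 957 bp inside, with 3.11 and 3.82. The second of these was the highest end fold of any member in either list, at percentile 86.4 of Control 1 and 91.1 of Bmal1 CKO 2, from 29 stacked fragments in each. Another shared peak lay 9142 bp outside the lower end, inside the noncoding gene Gm31107, with folds of 3.14 and 3.40. Nefl had 1.19 peaks per 10 kb in Control 1 and 1.59 in Bmal1 CKO 2 (percentiles 64.8 and 94.4).

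Nefm (medium chain; chromosome 14, 68119545 to 68125004) is a neighbour of Nefl, but their windows did not overlap and shared no peak. It had 3 peaks in Control 1 and 2 in Bmal1 CKO 2, of which 1 was shared, at 68113896 and 68114005 within the pseudogene Gm19216, with folds of 3.36 and 3.07. The end peaks did not meet: Control 1 had one 493 bp inside the upper end with a fold of 3.14, and Bmal1 CKO 2 one 41 bp outside it with 2.61, both within the noncoding gene A230070E04Rik. Nefh (heavy chain; chromosome 11, 4938754 to 4948064) had 3 peaks in Control 1 and 0 in Bmal1 CKO 2. Their folds were 3.27 inside the gene, 2.65 at exactly 1000 bp inside the upper end, the limit of the end window, and 2.80 at 58 bp outside it, within the overlapping gene Ap1b1. The nearest summits just beyond that limit were those of Nefm at 1088 bp and of Pou4f1 at 1098 bp. With 1 library per genotype listing any peak, the absence from Bmal1 CKO 2 has no replicate check. Of all 52 member peaks of Control 1, 28 were without an overlap in Bmal1 CKO 2, the 3 of Nefh included, and 24 (46.2%) had one. At all protein-coding genes 41.0% of Control 1 peaks had one.

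At Thy1 the lists shared 1 of 3 regions, and at Sncg 0 of 5. Thy1, which encodes a surface glycoprotein of ganglion cells and many other neurons (chromosome 9, 44043384 to 44048579), had 2 peaks in each list. The shared one lay 6988 bp outside the upper end, with folds of 3.40 and 3.11 and summits 56 bp apart. Its only end peak, 184 bp inside the lower end, was in Control 1, with a fold of 2.72 (28 fragments over 9.68). The other peak of Bmal1 CKO 2 had 2.5 at 8200 bp outside the lower end. Sncg, which encodes gamma-synuclein (chromosome 14, 34370274 to 34374669), had 3 peaks in Control 1 and 2 in Bmal1 CKO 2, and none overlapped. None lay inside the gene or within 1 kb of it. The highest folds were 3.22 in Control 1, 6349 bp outside the lower end, and 2.6 in Bmal1 CKO 2, 7453 bp outside the upper end. Both Bmal1 CKO 2 peaks and 1 of Control 1 lay inside the neighbouring gene Mmrn2. Sncg also had the lowest fold of any member in Control 1, 2.16 at 1273 bp outside the lower end.

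**Figure D3:**
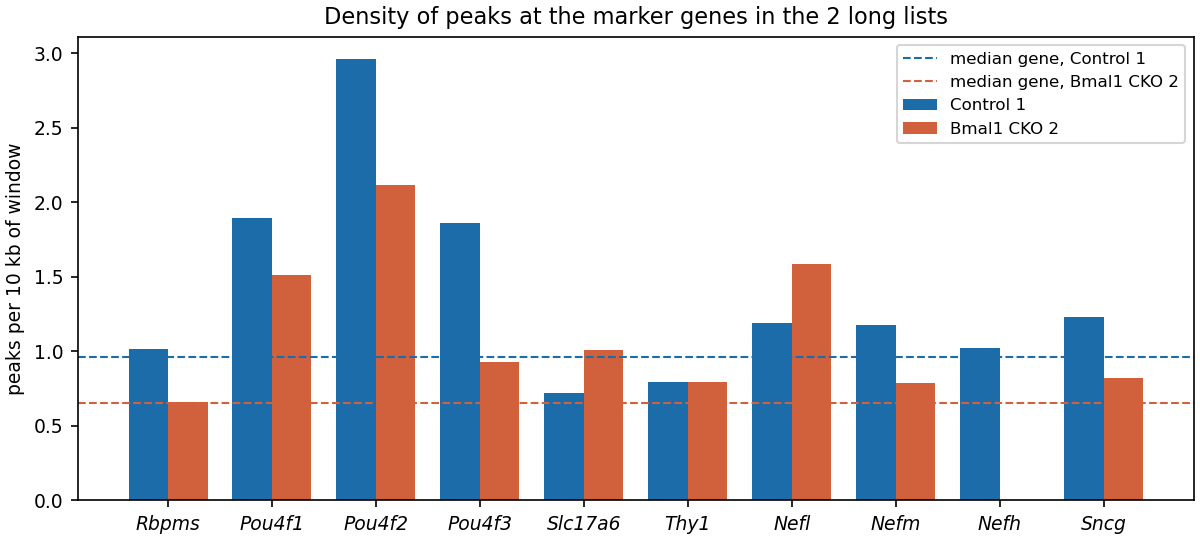
Peaks per 10 kb of window (y axis) at each gene in Control 1 and Bmal1 CKO 2, with dashed lines at the median of 21887 protein-coding genes, 0.963 in Control 1 and 0.650 in Bmal1 CKO 2. Pou4f2 stands highest in both lists, at 2.96 and 2.12, and Slc17a6 and Nefl are the genes with a higher bar in Bmal1 CKO 2.

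About as many peaks recurred between Control 1 and Bmal1 CKO 2 at the 10 genes as at genes in general when any overlap counted. The same held with summits within 100 bp. At a stricter q-value, which left only 19 and 8 peaks, the member shares were lower. They were also lower at a 50% overlap, which kept all 52 and 39 peaks. Neither setting has intervals here. Of the 52 Control 1 peaks, 24 overlapped a Bmal1 CKO 2 peak by at least 1 bp (46.2%, 95% Wilson interval 33.3 to 59.5), where 41.0% of all Control 1 peaks at protein-coding genes did. Of the 39 Bmal1 CKO 2 peaks, 24 overlapped a Control 1 peak (61.5%, interval 45.9 to 75.1), against 56.7%. Both intervals hold the value over all genes, and they cover counting error only. Merging the peaks of both lists gave 64 regions at the 10 genes, of which 21 (32.8%) were in both lists, 28 in Control 1 alone and 15 in Bmal1 CKO 2 alone. Regions were merged at the members only. Their counts, in all or by gene, therefore cannot be set against genes in general or against the shares of peaks above. Summits of overlapping peaks lay a median of 75 bp apart, and 13 of the 24 in each list were within 100 bp. Requiring 50% of both peaks to overlap left 23.1% of Control 1 peaks (all genes 31.8%) and 30.8% of Bmal1 CKO 2 peaks (all genes 42.6%) as shared. Among peaks with a −log10 q-value of 5 or more, 21.1% of 19 in Control 1 (all genes 29.1%) and 4 of 8 in Bmal1 CKO 2 (all genes 65.5%) overlapped. With summits within 100 bp it was 25.0% and 33.3%, and over all genes 25.0% and 33.4%. The members were not tested against all genes. By gene, the share of regions in both lists ran from 3 of 4 at Nefl, 3 of 5 at Pou4f1, 3 of 6 at Pou4f2 and 2 of 4 at Pou4f3 down to 0 of 3 at Nefh and 0 of 5 at Sncg.

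By position, each count was set beside the share of all peaks at protein-coding genes in the same kind of place. Among end peaks, 5 of 12 in Control 1 (41.7%, interval 19.3 to 68.0) overlapped the other list, where 64.4% of all end peaks did, and 6 of 7 in Bmal1 CKO 2 (85.7%, interval 48.7 to 97.4), where 85.3% did. Inside genes it was 10 of 25 in Control 1 (40.0%, all genes 35.4%) and 9 of 16 in Bmal1 CKO 2 (56.3%, all genes 49.5%). In the flanks it was 9 of 15 (all genes 39.0%) and 9 of 16 (all genes 51.7%). The intervals are wide, and no difference between positions was tested. Shared peaks of Control 1 had a median fold of 3.55 against 2.89 for the others, and those of Bmal1 CKO 2 had 2.80 against 2.66. The ranges overlapped in both lists, 2.58 to 6.54 and 2.16 to 4.15 in Control 1.

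Gene ends held more peaks per length than the rest of the windows. End windows made up 9.03% of the length of the 10 windows, and 23.1% of the member peaks of Control 1 and 17.9% of those of Bmal1 CKO 2 lay there. This gave 3.04 and 1.77 peaks per 10 kb at the ends, where all protein-coding genes had 2.45 and 2.02. Inside the genes the densities were 1.15 and 0.733 (all genes 0.765 and 0.557), and in the flanks 0.833 and 0.889 (all genes 0.858 and 0.599). The 25 Control 1 peaks inside genes included 14 at Rbpms and 4 at Slc17a6, the 2 longest members. Exons and introns were not told apart here. Of the member peaks, 12 of 52 and 10 of 39 had a summit within another annotated gene.

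Folds at the ganglion cell genes were modest within each list. The median was 3.15 in Control 1 (range 2.16 to 6.54), below the 3.54 of its whole list and the 3.41 of its peaks at protein-coding genes, and 17 of the 52 peaks lay above the list median. In Bmal1 CKO 2 the median was 2.76 (2.16 to 3.95) against 2.96 and 2.93, and 13 of 39 lay above the list median. Medians at genes of the 4 other retinal cell types below were similar, 3.07 to 3.30 in Control 1 and 2.64 to 2.75 in Bmal1 CKO 2. The further ganglion cell genes had 3.36 and 2.82. The stacked fragments behind a peak numbered 13 to 36 in Control 1 (median 23) and 19 to 34 in Bmal1 CKO 2 (median 24), over backgrounds of 3.46 to 10.4 and 5.83 to 12.8 fragments. Folds are relative to each library, and the higher background of Bmal1 CKO 2 goes with lower folds for the same number of fragments, so no difference in fold between the lists was tested. Among the highest folds of all genes with a peak, those of the members ran from percentile 15.1 (Sncg) to 92.6 (Pou4f1) in Control 1. In Bmal1 CKO 2 they ran from 13.6 (Pou4f3) to 76.3 (Slc17a6). A gene with more peaks has more chances of a high fold, and these percentiles were not adjusted for that.

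**Figure D4:**
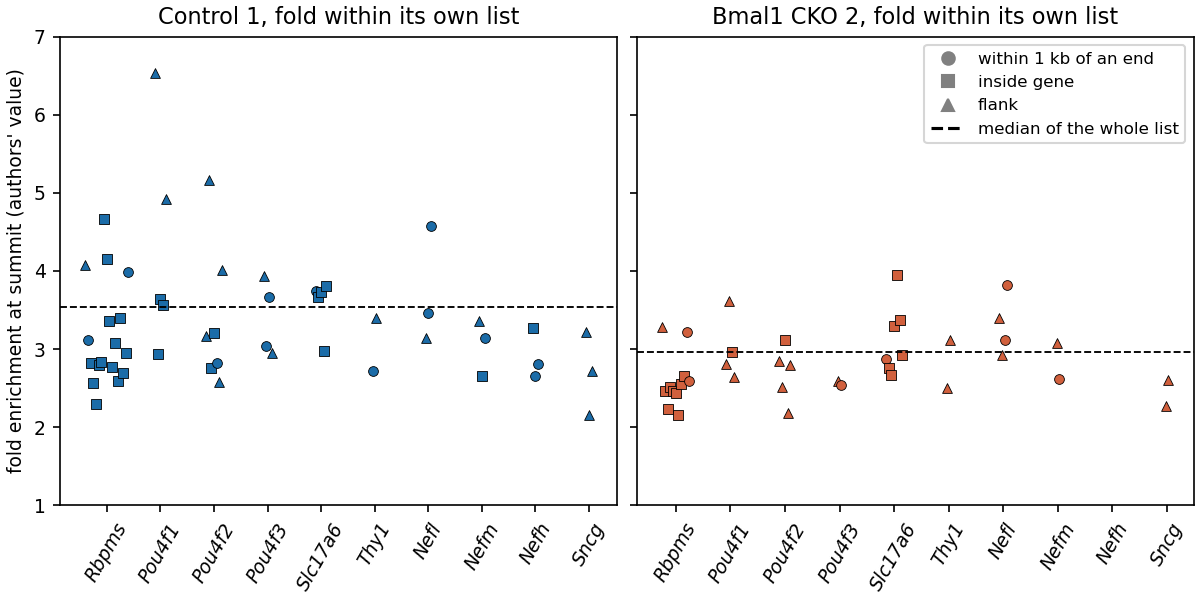
Fold enrichment at the summit (y axis, the authors' value) of every peak at the 10 genes, Control 1 on the left and Bmal1 CKO 2 on the right, with the marker shape giving its position. The dashed lines are the medians of the whole lists, 3.54 and 2.96. Most points lie below the line in each panel, and the Pou4f1 peak at 6.54 stands highest.

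Other ganglion cell genes had peaks about as often as the 10 members, and most protein-coding genes had one too. Of 30 further genes of ganglion cell fate, subtypes and axons, all 30 had a peak in the Control 1 list and 28 in that of Bmal1 CKO 2, and end peaks stood at 23 and 20, in both lists at 19. Over all protein-coding genes the shares with a peak were 92.6% and 87.8%. Those with an end peak were 69.5% and 58.9%, and 54.7% in both lists. The 5 with the highest end folds in both lists were Cartpt (7.26 in Control 1 and 3.85 in Bmal1 CKO 2), which encodes a neuropeptide precursor found in direction-selective ganglion cells, Stmn2 (3.85 and 4.08), a microtubule regulator of growing axons, Jam2 (3.98 and 3.62), Ebf1 (5.36 and 3.30) and Spp1 (3.81 and 3.22). Jam2 encodes an adhesion protein that marks a ganglion cell subtype, Ebf1 a transcription factor, and Spp1 osteopontin, a marker of alpha ganglion cells. Of these 5, Cartpt and Stmn2 lay above the highest end fold of a member in Bmal1 CKO 2, the 3.82 of Nefl. Among 9 family relatives of the members, such as the other vesicular glutamate transporters, intermediate filaments and synucleins, the Control 1 list had an end peak at 7 and the Bmal1 CKO 2 list at 5.

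Beside genes of other retinal cells the counts at the 10 members were not set apart. End peaks in Control 1 and Bmal1 CKO 2 were found at 12 and 7 of 15 bipolar genes, 12 and 3 of 15 genes of amacrine or horizontal cells, 10 and 8 of 17 rod genes and 11 and 8 of 15 Müller glia genes. Of all protein-coding genes, 69.5% and 58.9% had an end peak. The member windows held 1.19 and 0.891 peaks per 10 kb, those of the 4 other cell types 0.925 to 1.29 in Control 1 and 0.565 to 0.743 in Bmal1 CKO 2, and those of the further ganglion cell genes 0.983 and 0.696. The members lay above the other cell types in Bmal1 CKO 2 and within their range in Control 1, and the lists were not tested against each other. Densities were not adjusted for length, and the members were shorter, with a median of 5.35 kb against 9.87 to 27.7 kb. Of Control 1 peaks in the windows of the 4 other cell types 31.9% to 48.2% overlapped Bmal1 CKO 2, against 46.2% at the members, which lie within that range. In the other direction it was 62.5% to 70.9% for the 4 other cell types against 61.5% at the members, below all 4. The lists share a few genes with each other and none with the members, and these gene lists had 0 peaks in the 4 short lists.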

How the data were processed

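BMAL1 ChIP-seq peak lists of 6 retina libraries were used. Per the submitters' processing notes, Trim Galore, Bowtie2 and MACS2 were used with build mm10; their versions, settings and any input library were not stated in the labels. Peaks were called per library. The authors deposited for every peak a fold enrichment (a ratio to the local background of that library), a −log10 p-value and a −log10 q-value at the summit, and a score equal to 10 times the −log10 q-value, rounded down. The series record ties each list to its library, and sample titles give the genotype. The numbers in the names of the lists do not match those of the titles, and the values cannot check the assignment on which every difference between Control 1 and Bmal1 CKO 2 rests.

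Summits (start plus offset) were assigned to genes of a RefSeq table (GRCm38.p6) within 10 kb, ends within 1 kb. Overlap needed 1 bp. Stacked fragments and background were solved from fold, with a pseudocount of 1, and a Poisson p-value; the stacked number was whole within 0.02 in 100.0% of peaks per list. The method was tested on simulated data. Libraries were compared with exact permutation tests. Python 3.11.15, scipy 1.17.1 and pandas 2.3.3 were used. Alternatives were a minimum −log10 q-value of 5, equal list lengths, other windows and overlaps, leaving out libraries and a replicate block. Scaling to other depths and shares of all genes by position were added after seeing the data. Members and gene lists were chosen with earlier results of these data known. All members are named, each with its highest fold per list and its end peaks, and up to 5 related genes by the lower of their end folds in the 2 long lists.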

Additional observations from a re-analysis of the deposited data

How the results depend on the processing

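Of 77 alternatives, 59 kept the direction or stayed within the interval of the reported value. Another 7 reversed a genotype difference, and 11 moved to 0 or out of the interval. The tally counts alternatives of the 3 genotype differences, whose test outcome was fixed in advance. It is therefore no measure of how robust the results are. The 3 genotype differences ranged, with each library left out in turn, from −3.33 to 3 members with a peak, from −2.67 to 1.67 members with an end peak and from −0.575 to 0.534 in log10 member peaks. Without the 2 long lists each was 0, and the lowest exact permutation p of any alternative was 0.70. With the replicate block, an exact sign-flip test of the same-numbered libraries, the differences were −0.333, −1 and −0.0407, each with p = 1. That outcome too was fixed by the single long list of each genotype. Deviations of same-numbered libraries from their genotype mean over 21887 genes correlated at −0.769, −0.786 and 0.775 for numbers 1, 2 and 3. The single long list of each genotype sets these signs, so they cannot show whether same-numbered libraries were paired. The main tests did not use the numbers as pairs. With q-values limited to a −log10 of 5 or more, 19 member peaks remained in Control 1 and 8 in Bmal1 CKO 2, 21.1% of the former overlapped the latter, and the median folds were 3.93 and 3.29. Overlap of 50% of both peaks gave 23.1% and 30.8% shared, and summits within 100 bp gave 25.0% and 33.3%. An end window of 2 kb put 38.5% of Control 1 member peaks at ends. These settings require stronger peaks, tighter overlap or a wider window by construction. Without Rbpms, an alternative chosen after seeing the data, 54.3% and 60.7% of peaks were shared. Values at single genes rest on 13 to 36 stacked fragments per peak in Control 1 and 19 to 34 in Bmal1 CKO 2.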
